A study of Mus musculus with 8 samples.

Results

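The genes described here are 10 regulators of the lateral plate and the intermediate mesoderm, Hand2, Foxf1a (current symbol Foxf1), Osr1, Isl1, Prrx1, Pax2, Pax8, Lhx1, Wt1 and Pitx1, measured in the posterior part of Cdx2 null and wild type mouse embryos. Every non-control probe that the array's own annotation assigned to one of these symbols was taken, which gave 10 of 27827 gene names and 19 of 41174 probes, printed as 55 spots on each array. The embryos were of the C57Bl6J/CBA strain and were collected with 4 or 5 somites and with 7 or 8 somites. Tissue was cut at matched axial levels, with the boundary of the youngest somite and the foot of the allantois as guides, and RNA came from 20 embryos for each genotype and stage. At each stage the Cdx2 null RNA and the wild type RNA were labelled with different dyes and hybridised together on 4 two-colour arrays, with Cy3 on the null RNA on arrays 1 and 3 and Cy5 on it on arrays 2 and 4, so that 8 arrays were measured in all. The labels name no second pool of embryos for any genotype and stage, so the 4 arrays of a stage were treated as repeated measurements of 1 null pool and 1 wild type pool. The null allele itself is not named in the labels.

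Cdx2 is a homeodomain transcription factor of the posterior growth zone, where it acts upstream of Hox genes and Wnt signalling during axis elongation. Lateral plate mesoderm lies furthest from the midline and forms the body wall, the limb bud mesenchyme, the muscle of the gut wall and much of the heart. Intermediate mesoderm lies between it and the somites and forms the nephric duct, the kidney and the gonad. Osr1 marks the earliest intermediate mesoderm together with adjoining lateral plate, after which Lhx1, Pax2 and Pax8 mark the nephric lineage and Wt1 the kidney and gonad primordia.

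The probe sequences are shown for the genes whose probes gave the clearest differences, or whose design bears on how their values are read. Each is a 60-base probe read 5′ to 3′, with its place in the mm9 build of the mouse genome as the scanner files give it. Both Osr1 probes are shown because the fall in Osr1 rests on them. They lie 374 bases apart on the plus strand of chromosome 12, do not overlap, and share no run longer than 5 bases, so they are separate readings of the transcript.
Osr1 A_51_P216652, chr12:9586041-9586100: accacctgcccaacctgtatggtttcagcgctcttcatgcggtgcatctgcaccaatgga
Osr1 A_52_P63728, chr12:9586475-9586534: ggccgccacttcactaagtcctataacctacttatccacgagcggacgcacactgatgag
The Lhx1 probe printed 10 times on each array is shown because it differed in outcome from the other Lhx1 probe, which lies 1143 bases away on chromosome 11, at chr11:84331888-84331947 on the minus strand.
Lhx1 A_51_P452119, chr11:84333091-84333150, minus strand: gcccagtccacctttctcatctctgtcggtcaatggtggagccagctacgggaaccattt
The Hand2 probes are shown because they are not independent readings. The 23 bases in capitals are common to both, and each 60-base probe covers 1360 bases of the genome, so both span an intron.
Hand2 A_52_P420479, chr8:59801214-59802573, plus strand: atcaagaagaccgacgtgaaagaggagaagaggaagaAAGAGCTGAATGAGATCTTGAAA
Hand2 A_51_P147850, chr8:59801251-59802610, plus strand: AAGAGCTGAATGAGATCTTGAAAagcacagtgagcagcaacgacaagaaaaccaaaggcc
The Pax2 probe is shown because it holds a run of 8 G, in capitals, and its listed position covers 59 bases of the genome, against 60 in the probe. It had the highest G and C content of the 19 member probes, 68.3%.
Pax2 A_51_P375526, chr19:44835375-44835433, plus strand: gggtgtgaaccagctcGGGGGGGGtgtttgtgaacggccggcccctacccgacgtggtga

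Values are log2 ratios of Cdx2 null over wild type on each array, after background correction with an offset of 50 and loess normalisation, and levels are log2 intensities of each pool after the 2 channels of all arrays were put on a common scale. The offset pulls the ratios of dim probes towards 0. The share of probes well above background in a channel was 46.5% to 58.9%, and no non-control spot was saturated. Across probes, arrays of one stage correlated at 0.856 to 0.918 when the dyes were laid out alike and at 0.477 to 0.516 when they were swapped. Cdx2 was lower in the null pools on 8 of 8 arrays, with ratios between -1.61 and -1.10 and means of -1.23 at 4/5 somites and -1.55 at 7/8 somites, which bears out the labelled direction. Whether its probe lies inside the mutated stretch is unknown, since no source used here states it. For the test, the 4 arrays of a stage were averaged and limma was fitted to the 2 stage means across all 21907 probes that were well above background on at least 3 of 4 arrays in at least 1 pool, with Benjamini-Hochberg adjustment over all of them and a threshold of 0.05. With 1 pool for each genotype and stage, SDs are over repeated arrays of the same RNA. The p-values take the 2 stages as replicates and do not measure spread between embryos. Spots of a probe on the same array read the same RNA, so counts of spots are not counts of replicates. In bulk tissue, fewer cells of a type and less RNA per cell cannot be told apart.

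Of the 19 member probes, 13 passed the filter, and these belong to 8 of the 10 genes. Both Osr1 probes were called lower in the null pools, 1 of the 2 Lhx1 probes was called higher, and the other 10 probes were not called. Over all probes tested, 8.42% were called, 4.94% higher and 3.48% lower. A ratio on the same side of 0 on all 8 arrays was found for the 2 Lhx1 probes, positive, and for both Osr1 probes, 1 Hand2 probe and 1 Prrx1 probe, negative; among the probes with a ratio on every array this was the case for 10.6% upwards and 8.16% downwards. None of the 13 probes reached a 2-fold difference at either stage, a size that 0.292% of all probes passed at 4/5 somites and 0.415% at 7/8 somites with 1 sign on all 4 arrays. The median ratio of all probes was -0.006.

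**Figure D1:**
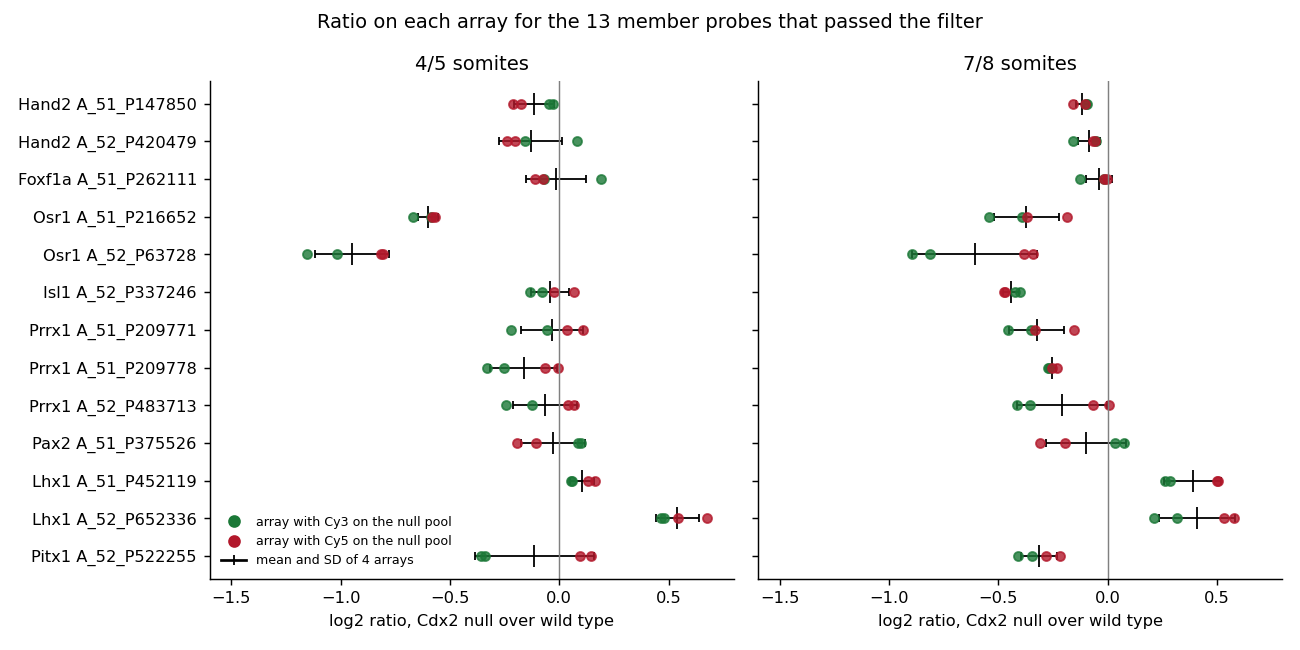
Log2 ratio of Cdx2 null over wild type on each array (points, coloured by the dye on the null pool) for the 13 member probes that passed the filter, at 4/5 somites (left) and 7/8 somites (right), with the mean and SD of 4 arrays in black. Both Osr1 probes lie below 0 and both Lhx1 probes above 0 on all 8 arrays, and Isl1 lies near 0 at 4/5 somites and between -0.47 and -0.40 at 7/8 somites.

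Osr1, which encodes a zinc finger factor needed for kidney, gonad and heart development, was the clearest change among the 10 genes: it was lower in the Cdx2 null pools at both stages and with both probes. With A_52_P63728 the level was 8.13, 8.39, 8.49 and 8.48 on the 4 arrays of the null pool at 4/5 somites, against 9.29, 9.20, 9.51 and 9.29 in the wild type pool. At 7/8 somites it was 8.40, 8.53, 8.34 and 8.35 in the null pool and 9.29, 8.91, 9.15 and 8.69 in the wild type pool. The genotypes did not overlap at either stage. The ratios on arrays 1 to 4 were -1.15, -0.81, -1.02 and -0.82 at 4/5 somites (mean -0.95 ± 0.17, SD, n = 4 arrays) and -0.90, -0.38, -0.81 and -0.34 at 7/8 somites (-0.61 ± 0.29). Over both stages Osr1 fell by 0.78 on the log2 scale (SE 0.0945), a 1.72-fold lower level, with an adjusted p of 5.12e-05 in limma's test and a 95% interval of -0.98 to -0.58; A_52_P63728 ranked at 168 of the 21907 probes by p.

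The second Osr1 probe, A_51_P216652, gave a smaller difference in the same direction. Its level was 7.74, 7.65, 7.62 and 7.63 in the null pool at 4/5 somites, against 8.32, 8.23, 8.29 and 8.20 in wild type, and at 7/8 somites 7.61, 7.54, 7.57 and 7.85 in the null pool against 8.00, 7.90, 8.12 and 8.03 in wild type. Again no array of a null pool reached its wild type counterpart at either stage. The ratios were -0.59, -0.58, -0.67 and -0.57 at 4/5 somites (-0.60 ± 0.05) and -0.39, -0.37, -0.54 and -0.18 at 7/8 somites (-0.37 ± 0.15). The mean of both stages was -0.49 (SE 0.0891, 1.4-fold lower), with an adjusted p of 0.00213 in limma's test. All 4 pools were well above background on every array with both probes. The size of the Osr1 ratio moved with the dye order: with A_52_P63728 it was 0.28 less negative at 4/5 somites and 0.49 less negative at 7/8 somites when the null pool carried Cy5 than when it carried Cy3, and with A_51_P216652 the 2 differences were 0.05 and 0.19. The sign was negative in both dye orders. The call of A_51_P216652 was lost without background correction, with an adjusted p of 0.0821 in limma's test, with median centring in place of loess, with 0.075, and without the filter on dim probes, with 0.0543.

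The difference in Osr1 was larger at 4/5 than at 7/8 somites in the means of both probes, and the ratios of the 2 stages did not overlap for A_51_P216652 but did for A_52_P63728; ratios higher at 7/8 than at 4/5 somites with no overlap were found for 10.3% of all probes. In the null pools the log2 level at 7/8 minus that at 4/5 somites was 0.03 with A_52_P63728 and -0.02 with A_51_P216652, and the stages overlapped with both probes. In wild type the same difference was -0.31 with A_52_P63728, with overlap, and -0.25 with A_51_P216652, with no overlap; in wild type 10.1% of all probes were lower at 7/8 somites with no overlap. The stage difference has no replicate pool and was not tested.

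**Figure D2:**
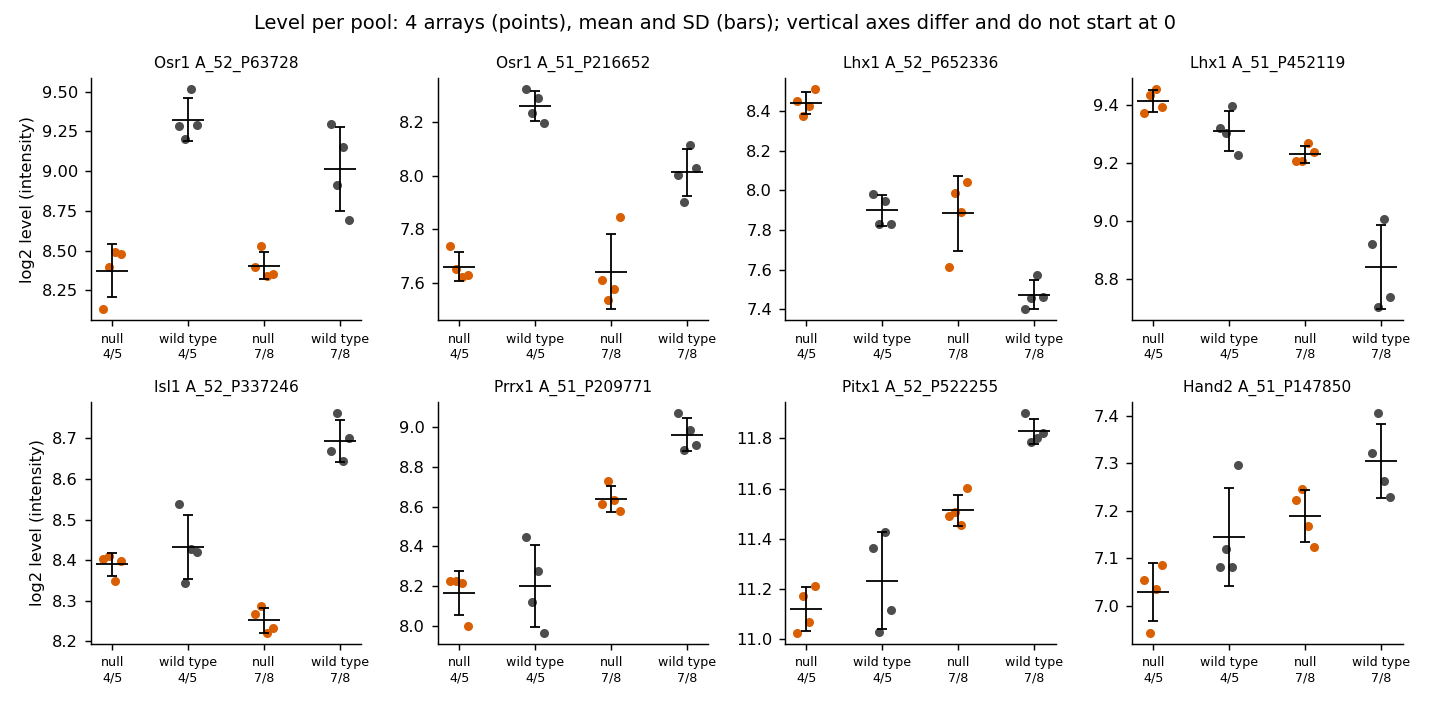
Log2 level (intensity) of 8 member probes in each pool, Cdx2 null (orange) left of wild type (grey) at 4/5 and then 7/8 somites, with the 4 arrays as points and their mean and SD as bars; each panel has its own vertical axis, which does not start at 0. Osr1 is lower in the null pool at both stages with both probes, and Isl1 is lower in the null pool at 7/8 somites, where its 4 arrays lie between 8.22 and 8.29 against 8.64 to 8.76 in wild type.

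Lhx1, a LIM homeodomain factor of the nephric duct that is also expressed in early axial and lateral mesoderm, was higher in the null pools, but its 2 probes did not give the same picture. With A_52_P652336 the level was 8.45, 8.38, 8.42 and 8.51 in the null pool at 4/5 somites, against 7.98, 7.83, 7.95 and 7.83 in wild type. At 7/8 somites it was 7.61, 7.99, 7.89 and 8.04 in the null pool and 7.40, 7.46, 7.57 and 7.46 in wild type. The null pool lay above the wild type pool on every array at both stages. The ratios were 0.46, 0.54, 0.48 and 0.68 at 4/5 somites (0.54 ± 0.10) and 0.21, 0.53, 0.32 and 0.58 at 7/8 somites (0.41 ± 0.17), with a mean of 0.48 (SE 0.0859, 1.39-fold higher) and an adjusted p of 0.00191 in limma's test. Without background correction the mean was 0.39 and the adjusted p 0.0667.

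The other Lhx1 probe, A_51_P452119, was not called, with a mean of 0.25 and a 95% interval of 0.05 to 0.44. The adjusted p was 0.123 in limma's test. It is the brighter of the 2 probes, with mean levels of 8.8 to 9.4 in the pools against 7.5 to 8.4 for A_52_P652336. With only the brightest probe of each gene fitted, A_51_P452119 was also not called (adjusted p 0.0942 in limma's test). Its ratios were 0.05, 0.13, 0.06 and 0.16 at 4/5 somites (0.10 ± 0.06) and 0.29, 0.50, 0.26 and 0.50 at 7/8 somites (0.39 ± 0.13). All of them were positive, and the 7/8 values lay above the 4/5 values with no overlap, as they did for 10.3% of all probes. This probe is printed 10 times on each array, and 33 of the 40 usable spots at 4/5 somites and 38 of 38 at 7/8 somites were higher in the null pool. The probes therefore gave close means at 7/8 somites, 0.39 for A_51_P452119 and 0.41 for A_52_P652336, and unlike means at 4/5 somites, 0.10 and 0.54. Both were lower at 7/8 than at 4/5 somites in each genotype with no overlap, with differences of -0.18 and -0.56 in the null pools and of -0.47 and -0.42 in wild type; a level lower at 7/8 somites with no overlap was found for 9.13% of all probes in the null pools and 10.1% in wild type. As with Osr1, the ratio moved with the dye order, and arrays with Cy5 on the null pool gave the higher values: by 0.14 and 0.29 at the 2 stages with A_52_P652336 and by 0.09 and 0.23 with A_51_P452119.

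Isl1, a LIM homeodomain factor of the hindlimb field, the cloacal region and the second heart field, was close to equal between genotypes at 4/5 somites and lower in the null pool at 7/8 somites, and it was not called over both stages. Its ratios were -0.14, 0.07, -0.08 and -0.02 at 4/5 somites (-0.04 ± 0.09) and -0.40, -0.47, -0.42 and -0.47 at 7/8 somites (-0.44 ± 0.04, 1.36-fold lower). The ratios at 7/8 somites lay below those at 4/5 somites with no overlap, as they did for 8.03% of all probes. The mean of both stages was -0.24, with an adjusted p of 0.157 in limma's test and a 95% interval of -0.45 to -0.03. Isl1 is measured by 1 probe, A_52_P337246 at chr13:117088774-117088833 on the minus strand, printed 10 times on each array. At 7/8 somites all 37 usable spots were lower in the null pool, against 23 of 36 at 4/5 somites.

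The level of Isl1 also moved in opposite directions between the stages. In the null pools it was 8.40, 8.41, 8.35 and 8.40 at 4/5 somites and 8.27, 8.29, 8.22 and 8.23 at 7/8 somites. In the wild type pools it was 8.54, 8.35, 8.43 and 8.42 at 4/5 somites and 8.67, 8.76, 8.64 and 8.70 at 7/8 somites. The difference of the later from the earlier pool was -0.14 in the null embryos and 0.26 in wild type, each with no overlap of arrays. Over all probes, a level lower at 7/8 somites with no overlap was found for 9.13% in the null pools, and a level higher at 7/8 somites with no overlap for 8.55% in wild type. Both together, as for Isl1, were found for 0.183% of all probes and for no other of the 13 member probes. The reverse pattern, higher at 7/8 somites in the null pools and lower in wild type, was found for 0.39%. The pattern was counted after the Isl1 values were seen. Each genotype and stage has a single pool, measured on 4 arrays, and the difference was not tested.

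**Figure D3:**
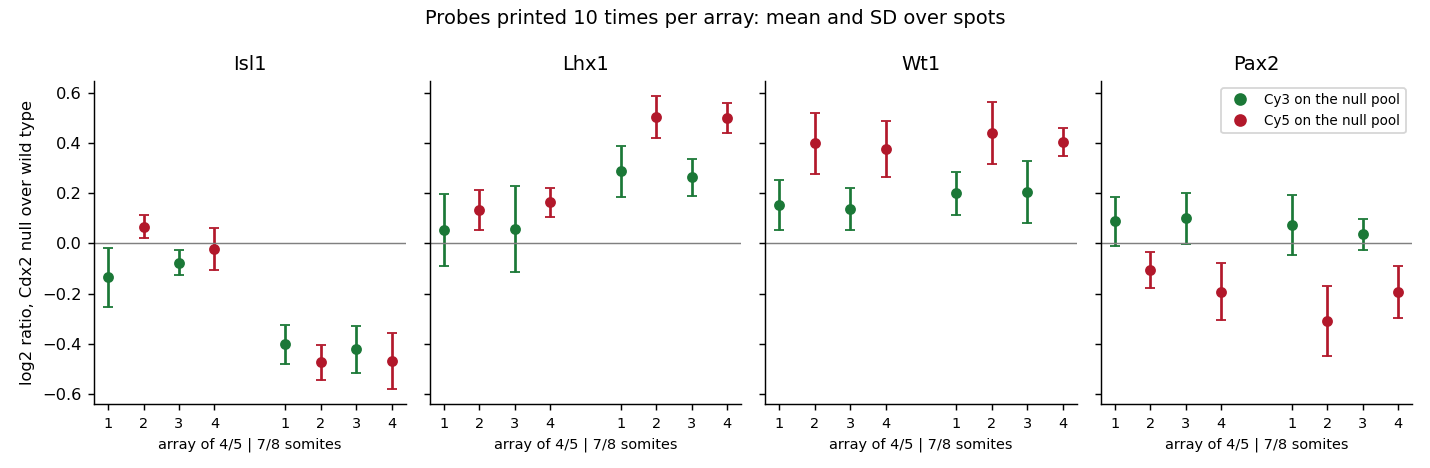
Log2 ratio of Cdx2 null over wild type for the 4 member probes printed 10 times on each array, as the mean and SD over the usable spots of each array, coloured by the dye on the null pool, with the 4/5 somite arrays left of the 7/8 somite arrays. Isl1 lies below 0 on the 7/8 somite arrays, Lhx1 A_51_P452119 and Wt1 lie above 0 on all 8 arrays, and Pax2 lies above 0 with Cy3 and below 0 with Cy5 on the null pool.

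Prrx1, a homeodomain factor of lateral plate and limb mesenchyme, has 6 probes on the array, spread along its locus on chromosome 1, and 3 of them passed the filter. None was called in the fit to stage means, and all 3 had negative means at both stages. With A_51_P209778 the ratios were -0.33, -0.01, -0.25 and -0.06 at 4/5 somites (-0.16 ± 0.15) and -0.27, -0.23, -0.27 and -0.25 at 7/8 somites (-0.26 ± 0.02). This was the Prrx1 probe with a negative ratio on all 8 arrays. Its mean was -0.21, with an adjusted p of 0.158 in limma's test. With the slide as a block on dye swap pair means it was called, with an adjusted p of 0.0394 in limma's test. That setting counts slides with the same pools as replicates, so the call adds no evidence. A_51_P209771 averaged -0.03 ± 0.14 and -0.32 ± 0.12 at the 2 stages, and A_52_P483713 averaged -0.07 ± 0.14 and -0.21 ± 0.21, with adjusted p-values of 0.289 and 0.414 in limma's test. Their 95% intervals over both stages were -0.37 to 0.02 and -0.32 to 0.05. The other 3 Prrx1 probes did not pass: A_52_P335587 and A_52_P480842 were not well above background on any array of any pool, and A_51_P262972 was well above background on 1 and 2 of 4 arrays of the null pools at 4/5 and 7/8 somites and on none of the wild type arrays.

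Prrx1 had the largest difference between stages of the 13 probes in wild type. The level of A_51_P209771 was 8.23, 8.22, 8.22 and 8.00 in the null pool at 4/5 somites and 8.61, 8.73, 8.63 and 8.58 at 7/8 somites, a difference of 0.47. In wild type it was 8.45, 8.12, 8.27 and 7.97 at 4/5 somites and 9.07, 8.88, 8.98 and 8.91 at 7/8 somites, a difference of 0.76. The stages did not overlap in either genotype with any of the 3 probes. With A_51_P209778 the differences were 0.54 in the null pools and 0.63 in wild type, and with A_52_P483713 they were 0.45 and 0.59. A level higher at 7/8 somites with no overlap was found for 11.3% of all probes in the null pools and 8.55% in wild type.

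Pitx1, a homeodomain factor that marks the hindlimb field, followed the same course. Its level was 11.03, 11.17, 11.07 and 11.21 in the null pool at 4/5 somites and 11.49, 11.51, 11.46 and 11.60 at 7/8 somites, a difference of 0.39. In wild type it was 11.36, 11.03, 11.43 and 11.11 at 4/5 somites and 11.90, 11.79, 11.80 and 11.82 at 7/8 somites, a difference of 0.60. The stages did not overlap in either genotype. Between genotypes the ratios were -0.34, 0.15, -0.36 and 0.10 at 4/5 somites (-0.11 ± 0.27), where the sign followed the dye order, and -0.41, -0.28, -0.35 and -0.22 at 7/8 somites (-0.31 ± 0.08), where all 4 were negative. Pitx1 was not called over both stages, with a mean of -0.21, an adjusted p of 0.163 in limma's test and a 95% interval of -0.40 to -0.03. The single Pitx1 probe, A_52_P522255, lies at chr13:55926417-55926476 on the minus strand.

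**Figure D4:**
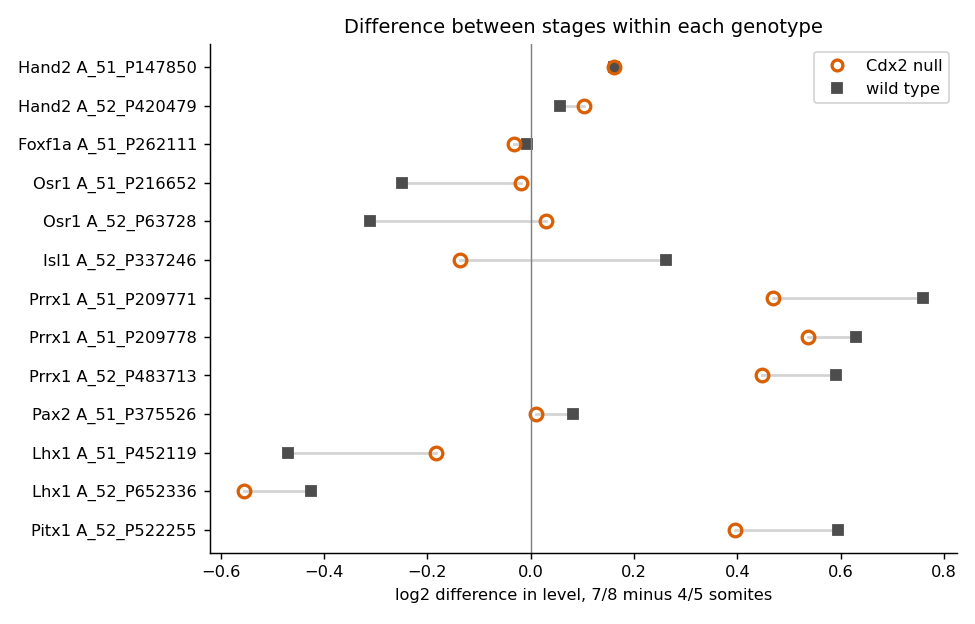
Log2 difference in level between 7/8 and 4/5 somites within the Cdx2 null pools (open orange circles) and within the wild type pools (grey squares) for the 13 member probes that passed the filter. Prrx1 and Pitx1 are higher at the later stage in both genotypes, Lhx1 is lower in both, Isl1 has opposite signs, and the Osr1 probes differ by 0.03 and -0.02 in the null pools and by -0.31 and -0.25 in wild type.

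Hand2, a basic helix-loop-helix factor of lateral plate, limb bud and heart, differed little between genotypes. A_51_P147850 had ratios of -0.03, -0.18, -0.05 and -0.21 at 4/5 somites and -0.10, -0.16, -0.10 and -0.10 at 7/8 somites, with means of -0.12 at both stages, negative on 8 of 8 arrays. A_52_P420479, which shares 23 bases with it, averaged -0.13 and -0.08 and was negative on 7 of 8 arrays. The adjusted p-values were 0.501 and 0.539 in limma's test. The 95% intervals over both stages were -0.29 to 0.06 and -0.29 to 0.07, which do not show equality and hold for this processing only. With the scanner software's processed signals the means were -0.22 for A_51_P147850 and -0.31 for A_52_P420479, the latter outside its interval. Neither was called there, with adjusted p-values of 0.349 and 0.169 in limma's test. Within genotypes the level of A_51_P147850 was 0.16 higher at 7/8 than at 4/5 somites both in the null pools, with no overlap, and in wild type, where the stages overlapped.

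Foxf1a, a forkhead factor of splanchnic lateral plate and the allantois, had a mean ratio of -0.02 ± 0.14 at 4/5 somites and -0.04 ± 0.06 at 7/8 somites, with an adjusted p of 0.917 in limma's test and a 95% interval of -0.21 to 0.15. Its level in the 4 pools averaged between 6.87 and 6.92, and the sign of its mean turned positive in 5 alternative settings, never with a call. Foxf1a thus had the smallest mean difference among the 13 probes, with probe A_51_P262111 at chr8:123610681-123610740. The probe was well above background on every array, but its level was low, and the offset pulls the ratios of dim probes towards 0. With the scanner software's processed signals its mean at 4/5 somites was 0.10.

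Pax2, a paired domain factor of the nephric duct, was also near 0 on average, but each array's sign followed the dye. The ratios were 0.09, -0.11, 0.10 and -0.19 at 4/5 somites (-0.03 ± 0.15) and 0.07, -0.31, 0.04 and -0.19 at 7/8 somites (-0.10 ± 0.18), positive on the 4 arrays with Cy3 on the null pool and negative on the 4 with Cy5. Over both stages the adjusted p was 0.77 in limma's test and the 95% interval -0.24 to 0.12. The Pax2 level averaged 6.64 and 6.65 in the null pools and 6.67 and 6.75 in wild type, close to background.

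Pax8 and Wt1 did not pass the filter. Pax8, the partner of Pax2 in the nephric lineage, was not well above background on any array with A_51_P381297, and with A_52_P606742 it was well above background on 1 of 4 arrays of each pool at 7/8 somites and on none at 4/5 somites, so no fold is given. Wt1, a zinc finger factor of the kidney and gonad primordia, was well above background on 2 of 4 arrays of the null pool at each stage, and in wild type on 2 of 4 arrays at 4/5 somites and on none at 7/8 somites. Its probe, A_52_P673458 at chr2:105013428-105013487 on the plus strand, is printed 10 times on each array. All 76 usable spots over the 8 arrays, which are repeated readings of the same pools, were higher in the null pools. The ratios were 0.15, 0.40, 0.14 and 0.37 at 4/5 somites (0.27 ± 0.14) and 0.20, 0.44, 0.20 and 0.40 at 7/8 somites (0.31 ± 0.13), larger with Cy5 on the null pool in every pair. At 7/8 somites the null level averaged 6.65 and the wild type level 6.34, both close to background, so no minimum fold is given. Fitted without the filter on dim probes, Wt1 had an adjusted p of 0.0779 in limma's test and was not called.

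Other genes of the same tissues were read from 2 lists, each gene by its brightest probe that passed the filter; 9.28% of all 15490 genes read in this way were called, 5.62% higher and 3.66% lower. Of 20 lateral plate and limb field genes, 16 passed, 7 were higher in the null pools, 1 was lower and 8 were not called, with a median ratio of 0.22. The list's summed linear intensity was 12884 to 13990 in the null pool against 12112 to 14666 in wild type at 4/5 somites. At 7/8 somites it was 13487 to 14936 against 12054 to 12310. Prrx2, the paralogue of Prrx1 in limb and facial mesenchyme, was 0.75 higher (SE 0.0844, adjusted p 2.46e-05 in limma's test). Gata6, a zinc finger factor of the heart and endoderm, was 0.54 higher (adjusted p 0.00251 in limma's test). Bmp4, a ligand made in posterior lateral and extraembryonic mesoderm, was the gene called lower and fell by 0.49 (adjusted p 0.00161), a call that ended with median centring, where no gene of the list was lower. Tcf21, Twist1, Tbx20 and Gata5, named after their values were seen, were also called higher, with ratios between 0.29 and 0.47. Tbx4, Irx3, Nkx2-5 and Barx1 did not pass.

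Of 18 intermediate mesoderm and nephric duct genes, 9 passed, 4 were higher in the null pools, 1 was lower and 4 were not called, with a median ratio of 0.01. The list's summed linear intensity, in which bright genes weigh most, was lower in the null pool at both stages. It was 15288 to 18800 against 25842 to 27352 in wild type at 4/5 somites and 17123 to 22027 against 23335 to 29344 at 7/8 somites. The share of each gene in the sum is not given, so its fall is not read as a fall of the list. Eya1, a transcriptional coactivator that acts in the forming kidney and also in somites and placodes, was 0.68 higher (SE 0.0889, adjusted p 0.00011 in limma's test). Gata3, a zinc finger factor of the nephric duct, was 0.31 higher (adjusted p 0.0326) and is named after its values were seen. Cited1, a transcriptional coregulator of kidney progenitors that is also expressed in early mesoderm and extraembryonic tissue, fell by 0.59 (adjusted p 0.000432 in limma's test). Its ratios, -0.71 at 4/5 and -0.47 at 7/8 somites, were the lowest of the 9 genes that passed. Among the genes that did not pass were Osr2, Ret, Gdnf, Gfra1 and Hoxd11, which act in the forming kidney. Median centring in place of loess reduced the higher calls to 4 in the lateral plate list and 2 in the intermediate mesoderm list, and fitting without the filter on dim probes reduced them to 3 and 1.

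Some markers of neighbouring tissues were called between the same pools, where 5.62% of all genes were called higher and 3.66% lower. Of the somite and paraxial mesoderm genes, 4 of 6 were higher in the null pools and none lower, led by Dmrt2 (1.05) and Meox1 (0.92), and the list's summed linear intensity was 5442 to 5933 in the null pool against 3046 to 3196 in wild type at 4/5 somites, and 4208 to 4332 against 3573 to 3828 at 7/8 somites. Of the endothelial genes, 3 of 7 were lower, led by Etv2 (-1.01) and Kdr (-0.88). The 1 called higher was Flt1 (0.33), named after its values were seen. The list's sum was 3878 to 4194 in the null pool against 4536 to 4750 in wild type at 4/5 somites. At 7/8 somites it was 3672 to 4411 against 5895 to 7185. Visceral endoderm genes were called higher in 3 of 7 cases and lower in none, with Cubn (1.18) and Amn (0.97) foremost, and 4 were not called. One gene not called, Afp, is named after its values were seen. Its ratio averaged 0.48 at 4/5 somites and -0.82 at 7/8 somites. The list's sum was 12258 to 13853 in the null pool against 7438 to 8482 in wild type at 4/5 somites. At 7/8 somites it was 6017 to 7272 against 5781 to 6332. Gut endoderm genes were higher in 2 of 6 cases and lower in 2, Nepn (-2.44) and Krt19 (-1.37), with sums of 4499 to 4862 against 8575 to 9126 in wild type at 4/5 somites and 4854 to 5043 against 8747 to 9456 at 7/8 somites.

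Allantois genes were higher in 3 of 6 cases, with Snai2 (1.27) and Ahnak (0.80) foremost, and lower in 1; this list shares Tbx4, Hand1, Bmp4 and Msx1 with the lateral plate list. Its sum was 10009 to 10366 in the null pool against 8942 to 10807 in wild type at 4/5 somites and 12745 to 13463 against 8991 to 9321 at 7/8 somites. Surface ectoderm genes were higher in 3 of 5 cases and lower in none, with Krt5 (0.92) and Wnt6 (0.61) foremost, and sums of 4922 to 6086 against 3724 to 4340 in wild type at 4/5 somites and 6522 to 8013 against 4363 to 5060 at 7/8 somites. Presomitic mesoderm genes were lower in 2 of 7 cases, Msgn1 (-0.60) and Dll3 (-0.37). They were higher in 1, Mesp2 (0.31), named after its values were seen. The list's sum was 12318 to 13586 in the null pool against 16016 to 17297 in wild type at 4/5 somites. At 7/8 somites it was 14809 to 16034 against 14233 to 16016. Neural tube genes were higher in 1 of 7 cases, Nkx6-1 (0.56), and lower in 1, Mnx1 (-0.68), and notochord and node genes were higher in none of 6 and lower in 1, Shh (-0.60). In lists this small, 1 call is not read as a difference of the tissue. The part of these tissues in the Osr1, Lhx1 and Isl1 differences was not tested.

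Arrays 1 and 2 of each stage lay on one slide and arrays 3 and 4 on the other, and the called members kept their direction and their call on each. Both slides were taken to carry the same pools, so they repeat the measurement and not the embryos. The adjusted p-values of a single slide add no evidence to those from all arrays. On slide 1 alone the means were -0.81 for Osr1 A_52_P63728, -0.48 for Osr1 A_51_P216652 and 0.44 for Lhx1 A_52_P652336, with adjusted p-values of 1.98e-05, 0.00254 and 0.00481 in limma's test, and on slide 2 alone they were -0.75, -0.49 and 0.51, with adjusted p-values of 6.91e-08, 0.000163 and 6.46e-05.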

How the data were processed

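RNA from the posterior part of 20 embryos for each genotype and stage, 300 ng per labelling, was hybridised to 8 two-colour arrays, per the labels. The scanner files hold spot intensity values and quality flags in both channels as deposited, with array positions in mm9. The scanner software was Agilent Feature Extraction, version 9.5.3 per the submitters' processing notes and 10.5.1.1 per the file headers. The deposited matrix holds log10 ratios equal to the scanner software's own at 45018 of 45018 spots per array (tolerance 1e-05, column medians 0); it was used as an alternative. Intensities were corrected with normexp (offset 50) and loess in limma 3.58.1 (R 4.3.3), with control spots at weight 0, and turned to log2 null over wild type. Spots flagged as outliers, 1184 non-control spots or 0.341%, 17 of them in members, were left out, and the local background of 167 spots marked as uneven, 58 of these on the first 4/5 somite array, was replaced with the array's median. Spots of a probe were averaged, then the 4 arrays of a stage. Levels came from Aquantile scaling of both channels. The test had 1 residual and 14.92 prior degrees of freedom. Probe names came from the files; 15 of the 19 member probes matched a RefSeq accession, and 25097 of 41174 in all.

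The members and gene lists were chosen with earlier results of these data known. The text names all members and their probes, Cdx2, up to 4 genes of each related list and up to 2 of each other list that were called with 1 sign on all 8 arrays, by size; some of these are not reported here. Alternatives were other background corrections, scalings and filters, the matrix ratios, 1 probe per gene, each array left out, each slide alone and the slide as a block. The number of arrays limits the precision.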

Additional observations from a re-analysis of the deposited data

Results flagged for a closer look

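Within a stage, the ratio of 1 array stood apart from the other 3 in 6 of 38 groups of 4 arrays (Dixon's test at 95%, which chance meets in about 1 of 20 groups). For Osr1 A_51_P216652 at 4/5 somites it was array 3, at -0.67 against -0.59 to -0.57 on the others, in the direction of the reported difference. For Hand2 at 7/8 somites it was array 2 of A_51_P147850, at -0.16, and array 1 of A_52_P420479, at -0.16. For Foxf1a it was array 1 at 4/5 somites, at 0.19 against -0.11 to -0.07 on the others, and array 3 at 7/8 somites, at -0.13. For Prrx1 A_52_P480842, which did not pass the filter, it was array 4 at 4/5 somites, at 0.29.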

How the results depend on the processing

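Osr1 A_52_P63728 was called lower in all 20 settings in limma's test, with means of -0.95 to -0.67 and adjusted p-values of 3.49e-11 to 0.0457. Of 253 values of member probes over both stages, 243 kept their direction and their side of the threshold. The 4 lost calls were those of Osr1 A_51_P216652 in 3 settings and Lhx1 A_52_P652336 in 1, given above with their adjusted p-values. Prrx1 A_51_P209778 became a call with the slide as a block (adjusted p 0.0394 in limma's test), a setting that counts slides with the same pools as replicates. Foxf1a turned positive without background correction (0.0018), with median centring (0.0007), with the processed signals and the matrix (0.0124 each) and on slide 1 alone (0.0129).

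The 1845 probes called became 345 without background correction, 765 with median centring, 812 with uneven local backgrounds kept, 664 without the filter and 3110 with dye swap pair means and a replicate block for the slide; leaving out 1 array gave 942 (array 2 of 4/5 somites) to 2168 (array 1 of 4/5 somites), with 1062 without array 4 of 4/5 somites, 964 without array 2 and 1090 without array 4 of 7/8 somites. Higher probes were 58.6% of the calls, and 78.3% with median centring. The 3 called member probes became 1 without background correction and 1 with only the brightest probe of each gene. No member probe differed 2-fold at 4/5 somites, but 1 did with an offset of 10, with the processed signals and with the matrix. The lateral plate list had 7 higher genes and 1 lower, but 4 and 0 with median centring and 3 higher without the filter; the intermediate mesoderm list had 4 higher, but 2 with median centring and 1 without the filter. Of the values within a stage, 274 of 312 moved by less than the SD between arrays, as did 216 of 234 differences between stages. Signal over background limits Pax8 and Wt1, which did not pass the filter, and less so Pax2 and Hand2 A_52_P420479, which were not well above background on 1 of 4 arrays in 1 pool and in 2 pools.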

Other observations

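Msx1 and Foxf2, of the lateral plate list, were picked out after their values were seen, because their ratios differed between stages. Msx1, a homeodomain factor and target of BMP signalling, averaged -0.69 at 4/5 somites and 0.09 at 7/8 somites (adjusted p 0.189 over both stages in limma's test). Foxf2, the forkhead paralogue of Foxf1a, averaged 0.04 at 4/5 somites and -0.62 at 7/8 somites (adjusted p 0.164). Neither was called, and the difference between stages was not tested.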
